A study of Mus musculus with 2 samples.

Results

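The genes followed here are 9 known from neurons with injured or regrowing axons, measured across the tumor border and through the surrounding cerebellar tissue: Sprr1a, Gal, Atf3, Gap43, Ecel1, Sox11, Npy, Gadd45a and Adcyap1. They are 9 of the 19465 gene rows of the count tables, each stands on 1 row in both sections, and all 9 passed the filter on low counts. The genes were selected on measured values of these same sections, namely their levels at the tumor edge and in neural tissue and their levels in section 2 spots with and without Sprr1a. Their values are therefore described here and carry no test. When an axon is cut or crushed, stress kinases signal back to the cell body, and transcription factors such as Atf3, Jun and Sox11 switch on genes for growth cones, membrane and signaling peptides. Peripheral sensory and motor neurons mount this response strongly. Neurons of the adult central nervous system mostly do so weakly.

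The samples were 2 cerebellar sections of mouse brain, each 5 µm thick and formalin-fixed, and each a biological replicate of 1 condition without treatment. Both mice carried a tumor grown from HP organoids, mammary tumor organoids with a mutated human HER2 transgene under an actin promoter and mutated PIK3CA. Cre had been used to start the mammary tumors, and clones that express luciferase were selected before injection. The organoid suspension was injected into the cerebellum of mice that were 5 months old. The sample titles name the organoids HP-F1 +cre for Replicate1 (section 1) and HP-B6 +cre for Replicate2 (section 2), while the cell line label is B6-HP for both, so whether the organoids differed is not settled by the labels. With a needle tract and a growing tumor in the same cerebellum and no section without either, tumor and injection cannot be told apart as the setting of any level below. Probes against mouse transcripts were captured on barcoded spots and read as unique molecular identifiers (UMIs), and a spot can hold several cells.

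The promoter of Sprr1a is shown because 8 of the 9 genes are compared here by whether Sprr1a is present in the same spot, and that of Gal because it followed Sprr1a most closely. RefSeq (GRCm38.p6) gave a window from 250 bases before to 50 bases after the transcription start for 8 of the 9 genes. Gap43 had no entry in that table. Capitals mark the motif TGANTCA, which AP-1 factors of the Jun, Fos and Atf families bind. It was searched on both strands, as was the cyclic AMP response element TGACGTCA. The Sprr1a window lies at chr3:92485832-92486131 on the minus strand, and the Gal window at chr19:3414495-3414794 on the minus strand.
Sprr1a: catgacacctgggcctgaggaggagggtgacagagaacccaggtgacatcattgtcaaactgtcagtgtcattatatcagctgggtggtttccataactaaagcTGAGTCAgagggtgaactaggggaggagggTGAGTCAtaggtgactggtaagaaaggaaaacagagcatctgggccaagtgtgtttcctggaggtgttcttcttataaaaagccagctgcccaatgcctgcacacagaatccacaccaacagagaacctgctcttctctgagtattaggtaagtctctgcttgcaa
Gal: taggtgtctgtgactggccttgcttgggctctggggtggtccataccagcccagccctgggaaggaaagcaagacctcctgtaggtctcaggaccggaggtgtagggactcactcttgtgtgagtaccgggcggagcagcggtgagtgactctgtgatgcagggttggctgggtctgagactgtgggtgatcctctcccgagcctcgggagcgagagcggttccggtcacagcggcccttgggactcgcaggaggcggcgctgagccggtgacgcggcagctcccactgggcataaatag
Sprr1a held 2 copies of the AP-1 motif, which start 146 and 116 bases before the transcription start, and no cyclic AMP response element. No exact copy of either motif was in the windows of Gal, Atf3, Ecel1, Sox11, Npy, Gadd45a and Adcyap1. Of all 32851 promoter windows in the table, 7.81% held the AP-1 motif and 1.79% held the cyclic AMP response element.

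Regions were drawn from genes other than these 9. Each spot received an index, the log2 ratio of UMIs from 17 epithelial, collagen and cell cycle genes over UMIs from 14 neuronal, astrocyte and myelin genes, averaged with its neighbors, and the index was split at the threshold that best separated its 2 modes. Spots within 3 pitches of the border (a pitch is the distance between neighboring spots) formed a tumor-side and a neural-side edge, between a tumor interior and neural tissue beyond. Section 1 held 681, 171, 188 and 2275 spots in the interior, tumor-side edge, neural-side edge and neural regions, and section 2 held 840, 258, 270 and 2619. The sections held 63986887 and 71878333 UMIs under tissue, with a median of 9733.5 and 12390 per spot, and region sums ran from 3092093 to 36881634 UMIs. The tumors differed in their markers. Summed epithelial markers (Epcam, Krt7, Krt8, Krt19, Cldn7 and Cdh1) stood at 47.5 CPM (UMIs of a gene per 1e+06 UMIs of the library) in the interior of section 1 and at 10970 CPM in that of section 2, and summed fibroblast markers at 41518 and 393 CPM. Region levels below are CPM scaled by edgeR's TMM factors, with intervals at the 95% level that cover counting error alone, and ratios between regions were taken after adding 0.5 CPM to both levels, which understates those of low genes. In summed spots, fewer cells of a type and less RNA per cell cannot be told apart.

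Sprr1a, a small proline-rich protein of cornifying epithelium that injured sensory and motor neurons also make, differed most between the sections. Section 1 held 216 UMIs in 189 spots and section 2 held 6892 UMIs in 1230 spots, 28.4 times as much per UMI sequenced (counting interval 24.8 to 32.7). The other 11 Sprr rows on the array, from a family that serves the cornified envelope of skin and with the pseudogene Sprr2j-ps among them, had ratios of 0.571 to 0.957. They were low in both sections, at 0.585 to 3.11 CPM. Summed cornified markers, which include keratins, stood at 14.5 CPM in the tumor interior of section 1 and at 1294 CPM in that of section 2. Sprr1a of section 1 stood at 2.36 CPM in the tumor interior, 6.81 in the tumor-side edge, 8.66 in the neural-side edge and 3.503 in neural tissue. Section 2 had 37.0, 109, 86.1 and 166 CPM in the same order. Every region of section 2 was thus above every region of section 1, and the order of regions was not the same in both: neural tissue was the highest in section 2, while the neural-side edge was the highest in section 1, within the counting interval of the tumor-side edge.

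The UMIs of Sprr1a lay in patches in section 2 and singly in section 1. No spot of section 1 held more than 3 UMIs, against up to 95 in section 2. Of the non-tumor spots, 91 (3.69%) in section 1 and 766 (26.5%) in section 2 had at least 1 UMI, and 9.34% and 67.1% of their neighbors on the array had Sprr1a as well. Spots rich in granule neuron markers give a level to set beside these shares. In section 1, 4.81% of the 1351 granule-rich spots and 2.34% of the 1112 granule-poor spots had Sprr1a (median depths 8133 and 7506.5 UMIs). At an equal depth of 5000 UMIs, which left out the shallower spots, those shares were 2.68% of 981 and 1.28% of 823 spots, so the share in granule-poor spots was not above that in granule-rich ones. The UMIs of section 1 were not even over the tissue, however: Sprr1a stood at 9.70 CPM (6.55 to 13.9, library size scaling) within 3 pitches outside the border and at 1.66 CPM (0.452 to 4.25) in the next 3, and 131 of the 188 neural-side edge spots were granule-rich. In section 2 the shares were 8.77% of 1243 granule-rich and 39.9% of 1646 granule-poor spots (median depths 12429 and 8766.5 UMIs), or 4.23% and 35.1% at 5000 UMIs over 1116 and 1412 spots.

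**Figure D1:**
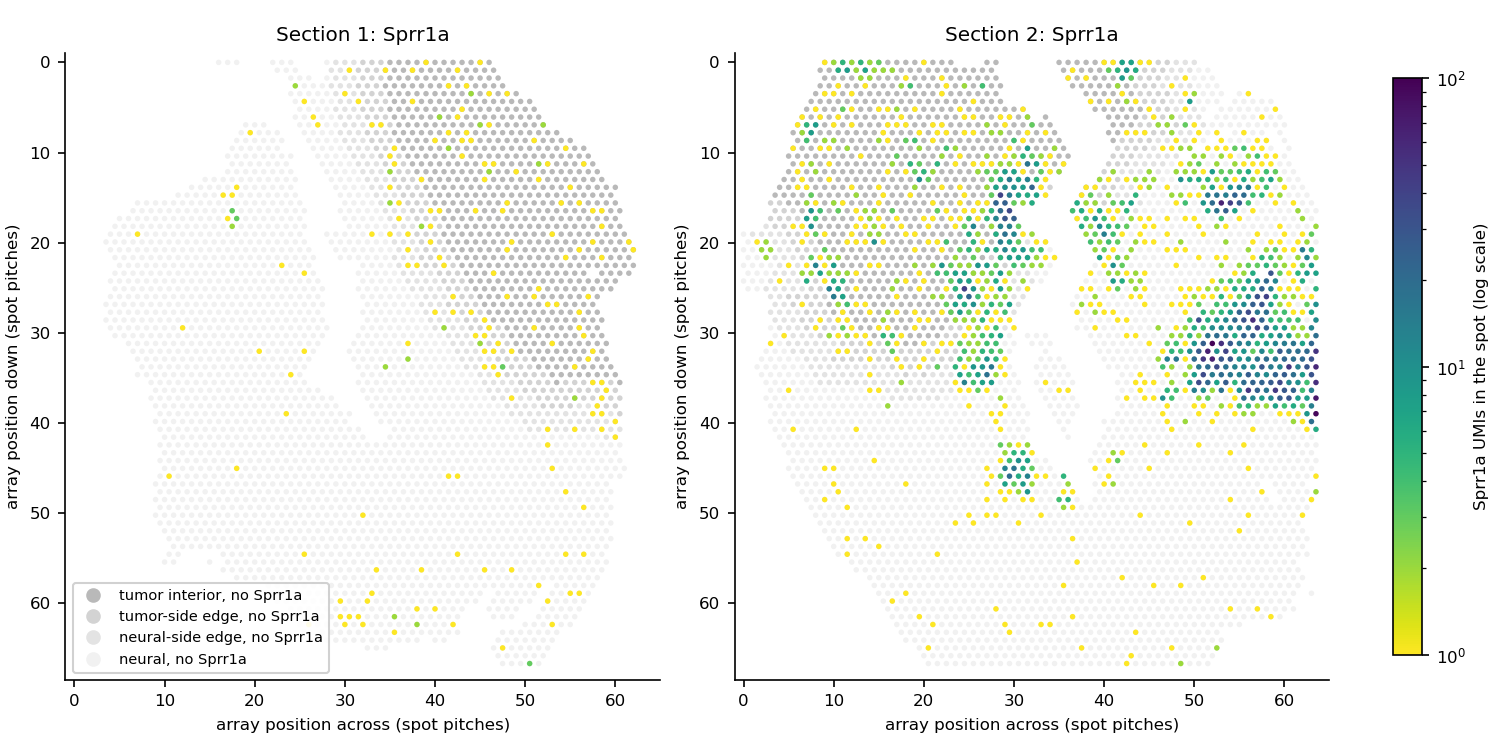
Sprr1a on the array, with position in spot pitches on both axes; color gives the UMIs of Sprr1a in each spot on a log scale, and gray shades give the region of spots without it. In section 1 no spot exceeds 3 UMIs, whereas section 2 has a dense patch of 242 spots at the right border of the array. Its smaller patches lie along the tumor border or in neural tissue away from it.

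The growth-cone protein Gap43 (growth-associated protein 43), a membrane phosphoprotein of growing axon tips and presynaptic endings, was a gene of neural tissue in both sections. It stood at 14.9, 93.3, 233 and 250 CPM from the tumor interior outward in section 1, and at 61.4, 285, 475 and 459 CPM in section 2. Neural-side edge and neural tissue were close in both, with ratios of 0.932 and 1.03, and the sign of their mean log2 difference of -0.03 turned with RLE factors (0.03) and with scaling by library size alone (0.01). In the tumor interior it was 16.3 and 7.42 times lower than in neural tissue.

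Of the transcription factors, Atf3 (activating transcription factor 3, a stress factor that is induced in injured neurons and also in many other cell types) was higher in both edges than in neural tissue. Section 1 had 24.4, 119, 101 and 10.4 CPM from the interior outward, and section 2 had 94.8, 119, 61.6 and 35.6 CPM. The tumor-side edge was thus 10.99 and 3.31 times as high as neural tissue, and the neural-side edge 9.37 and 1.72 times. Summed macrophage markers (6 of 6 detected, none at 0) were also higher in both edges than in neural tissue. From the interior outward they were at 1728, 4222, 3219 and 159 CPM in section 1 and at 1079, 4212, 1705 and 171 CPM in section 2. The order of regions was not the same in section 2, where the interior was above the neural-side edge for Atf3 and below it for these markers. The part of macrophages in the level of Atf3 was not tested. Sox11, a SoxC factor of immature and regrowing neurons, stood at 3.93, 10.2, 10.4 and 12.5 CPM in section 1 and at 31.4, 64.1, 36.0 and 27.2 CPM in section 2. The neural-side edge was 0.840 and 1.32 times as high as neural tissue, so the sections lay on either side of no difference, and the intervals of section 1 overlapped.

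Gal encodes galanin, a neuropeptide with little expression in most intact neurons of the brainstem and spinal nerves and a large rise after axotomy. It stood at 4.51, 29.8, 24.8 and 12.003 CPM from the interior outward in section 1 and at 7.87, 44.3, 47.4 and 108 CPM in section 2. The neural-side edge held 2.03 times the neural level in section 1 but 0.440 times in section 2, as for Sprr1a with 2.29 and 0.520 times. Npy, neuropeptide Y, had the neural-side edge as its highest region in both sections: 12.6, 66.7, 90.6 and 25.6 CPM in section 1, and 14.0, 59.2, 137 and 63.7 CPM in section 2, which is 3.49 and 2.14 times the neural level. Adcyap1 encodes PACAP, a peptide that acts on receptors coupled to cyclic AMP. It was lower toward the tumor in both sections, going from 16.4 CPM in neural tissue to 4.62, 3.60 and 2.67 in the neural-side edge, tumor-side edge and interior of section 1, and from 38.1 to 9.29, 10.3 and 2.90 CPM in section 2. At the neural-side edge this was 3.31 and 3.94 times lower than in neural tissue.

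Ecel1, a membrane peptidase-like protein that is also known as DINE for its induction in damaged neurons, had its highest level in neural tissue as well. Section 1 had 2.89, 7.61, 5.48 and 15.8 CPM from the interior outward, and section 2 had 6.41, 25.6, 17.1 and 34.8 CPM. The neural-side edge was 2.73 and 2.00 times lower than neural tissue. Gadd45a, a p53-regulated growth arrest and DNA damage gene, differed between the tumors: it was 172 CPM in the interior of section 1, its highest level there, and 70.4 CPM in that of section 2. The tumor-side edge (126 and 129 CPM) and neural-side edge (83.1 and 129 CPM) lay above neural tissue (41.5 and 63.8 CPM) in both sections, by 1.99 and 2.01 times at the neural-side edge.

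**Figure D2:**
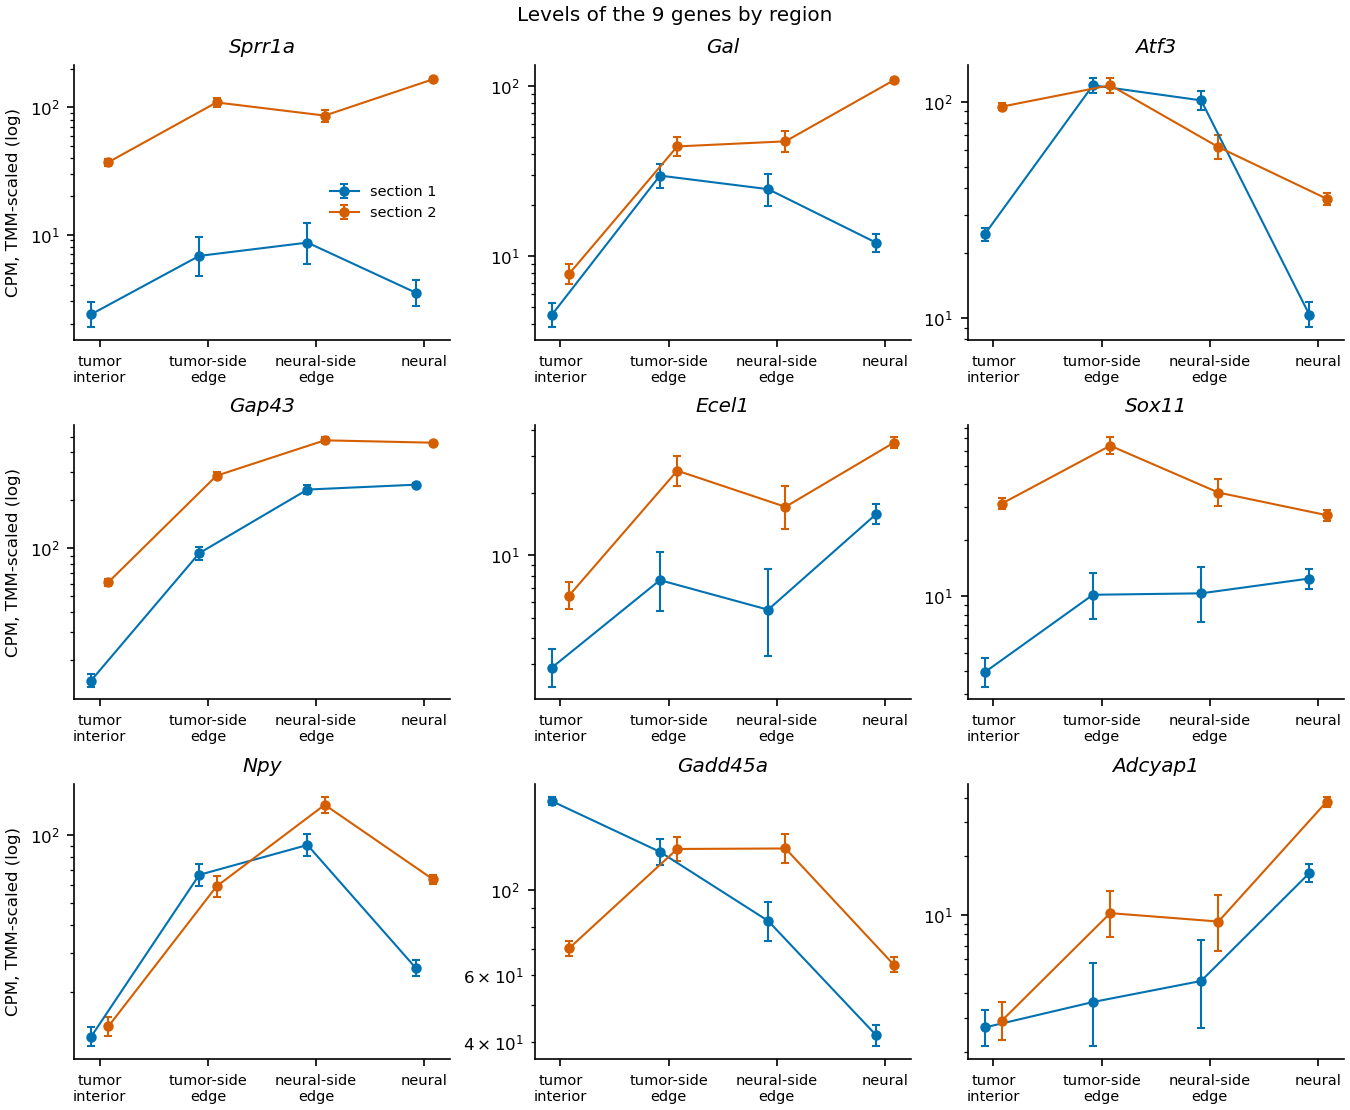
TMM-scaled CPM (log axis) of each gene in the 4 regions, section 1 in blue and section 2 in orange; bars are exact counting intervals at the 95% level. Atf3, Npy and Gadd45a lie higher in the neural-side edge than in neural tissue in both sections, Ecel1 and Adcyap1 lower in both, and Sprr1a and Gal go opposite ways.

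Across all genes, a quasi-likelihood test in edgeR, blocked by section, asked which genes differed from neural tissue (adjusted p under 0.05 and a log2 fold change beyond 1, 19064 genes tested). At the neural-side edge, 472 genes (2.48%) were called higher and 316 (1.66%) lower, and 0 of the 9 genes were among either. DESeq2 called 2 of the 9 higher and 2 lower there, the fit without granule-rich spots 1 and 1, and an edge of 2 pitches 0 and 1. The fit rests on few residual degrees of freedom, and no gene was called there when the section block was left out, with an edge of 5 pitches or with the threshold of the index lowered by 1. At the tumor-side edge 10.3% of genes were called higher and 11.5% lower, with Atf3 among the higher and Adcyap1 among the lower. With RLE factors, without the section block, with an edge of 5 pitches and with the threshold lowered by 1, 0 of the 9 genes were called higher there. In the tumor interior 14.9% were called higher and 15.5% lower, and 5 of the 9 genes were among the lower (Gal, Gap43, Ecel1, Npy and Adcyap1). Under scaling by library size alone, the share of higher among called genes went from 59.9% to 68.6% at the neural-side edge, from 47.2% to 38.3% at the tumor-side edge and from 49.0% to 29.6% in the interior, where the median of all genes moved from -0.07 to -0.42 on the log2 scale. Since the choice of the 9 genes used these contrasts, nothing is read from their counts.

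Distance from the border resolved the edge further, in bins 3 pitches wide. Atf3 of section 1 fell from 114 CPM in the 3 pitches outside the border to 33.6 in the next bin and to 8.60 at 9 to 12 pitches. Section 2 fell from 68.1 to 45.4 CPM and then stayed between 28.4 and 57.2 CPM out to 30 pitches. Npy fell from 102 to 51.5 CPM over the same step in section 1 and was highest in the second bin in section 2, at 163 CPM. Gal of section 1 stood at 27.8 CPM next to the border and at 4.57 CPM in the next bin, and again at 30.0 and 30.4 CPM in the 2 bins between 18 and 24 pitches. Sprr1a of section 2 had 95.2 CPM next to the border and its peak of 456 CPM at 18 to 21 pitches, where Gal peaked as well, at 378 CPM. Adcyap1 was low near the border in both sections, at 5.17 and 10.3 CPM, and stood at 29.9 and 79.6 CPM at 27 to 30 pitches, beyond which it was lower again.

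**Figure D3:**
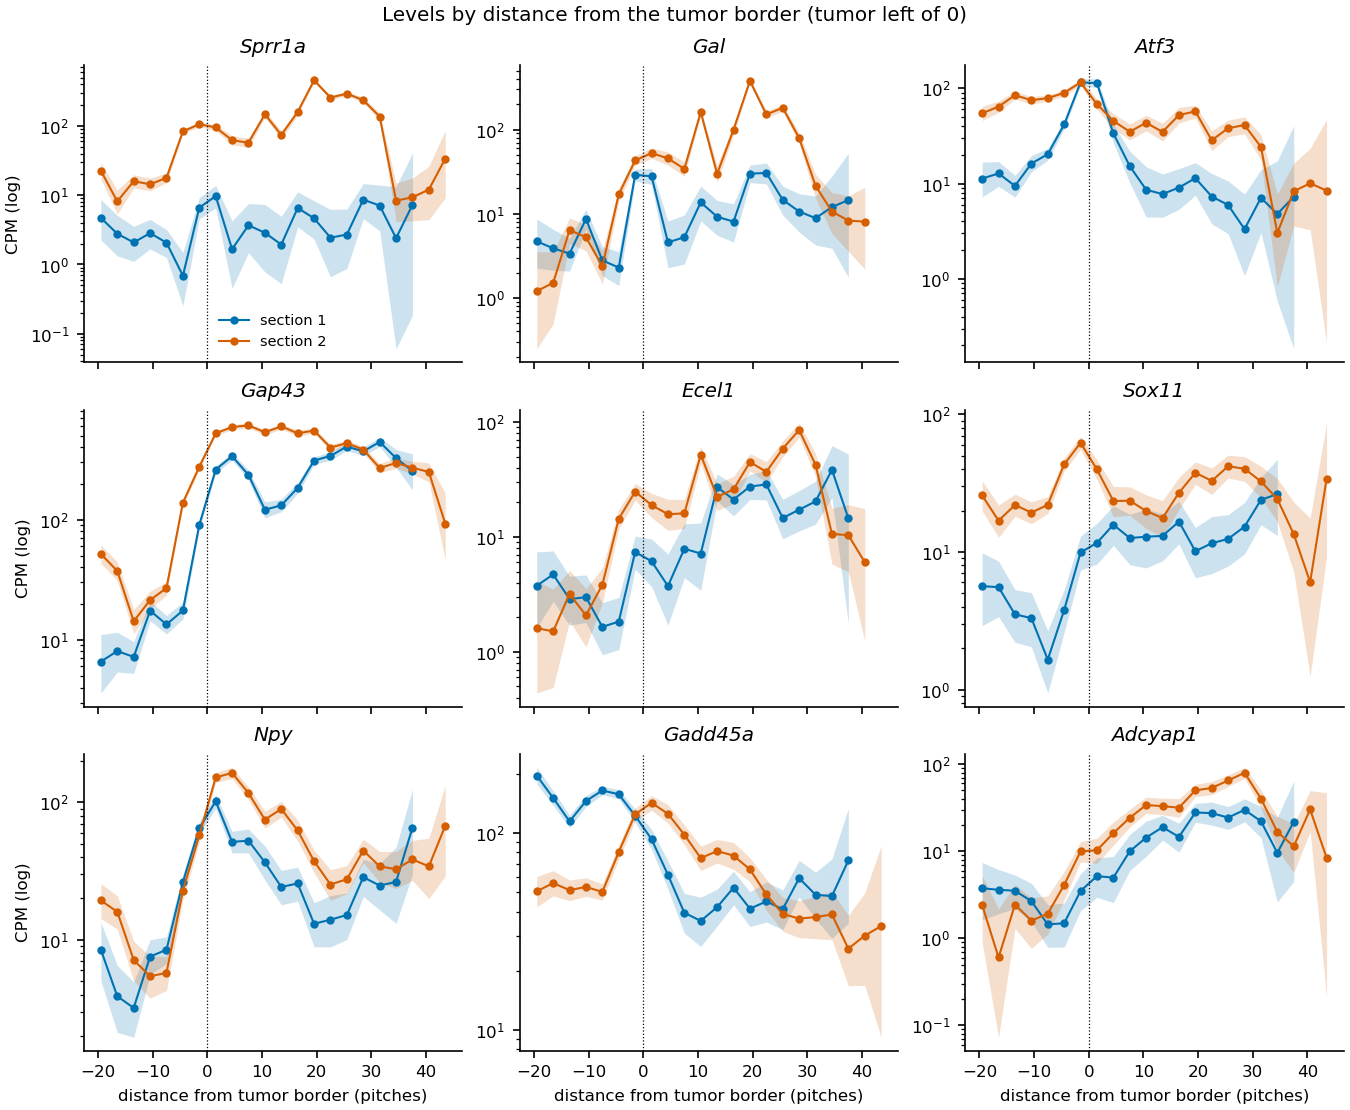
CPM (log axis, library size only) of each gene against the distance from the tumor border in spot pitches, tumor at negative values; points are bins 3 pitches wide with at least 20 spots and at least 1 UMI, and shading is the counting interval at the 95% level. Atf3 and Npy peak near the border in both sections, while Sprr1a and Gal of section 2 peak at 18 to 21 pitches.

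Within section 2, non-tumor spots with Sprr1a were set against those without it, 766 against 2123 spots with a median of 10954.5 and 9176 UMIs. Spots of 1 section are no replicates, so ratios are given with counting intervals and no test. Gal stood at 353 CPM in spots with Sprr1a and at 7.68 CPM in the others, a ratio of 45.9 (39.4 to 53.7). Ecel1 had a ratio of 5.40 (82.1 over 15.2 CPM), Atf3 of 4.83 (93.9 over 19.4), Adcyap1 of 4.34 (80.6 over 18.6), Sox11 of 2.77 (54.6 over 19.7), Gadd45a of 1.77 (109 over 61.7) and Gap43 of 1.56 (650 over 417). Npy went the other way in these spots, with 40.5 CPM in spots with Sprr1a and 90.3 CPM in the others, a ratio of 0.449 (0.401 to 0.502). Among the 13277 genes with at least 30 UMIs in both sets the median ratio was 0.964 and 1.07% of genes were above 2. By this ratio, which the choice of the genes used, Gal ranked 1, Ecel1 4, Atf3 7 and Adcyap1 12. Sox11 ranked 43, Gadd45a 259, Gap43 476 and Npy 13053.

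The levels were graded with the amount of Sprr1a in the spot. Gal went from 7.68 CPM in spots with no Sprr1a to 43.4 CPM with 1 UMI, 130 with 2 to 4, 267 with 5 to 9, 700 with 10 to 19 and 1364 with 20 to 95 UMIs. Its share of spots with a UMI went from 7.16% to 100% of the 77 spots in the last class. Atf3 went from 19.4 CPM through 34.0, 75.4, 109 and 139 to 228 CPM over the same classes. Ecel1 went from 15.2 to 220 CPM, Adcyap1 from 18.6 to 229, Sox11 from 19.7 to 120 and Gap43 from 417 to 827. Gadd45a was highest in the class of 2 to 4 UMIs, at 148 CPM, and lower again in the last, at 84.7. Median depth went from 9176 to 14338 UMIs over these classes, and CPM values already divide by depth. Of the 5250 Sprr1a UMIs in non-tumor spots, 3681 lay in 1 run of 242 touching spots, patch 1 below. The classes thus differ in location as well as in amount, and the part of location in this grading was not tested.

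The ratios differed by region. For Gal the ratio was 54.5 beyond the edge, 10.5 in the neural-side edge, 13.8 in the tumor-side edge and 6.21 in the tumor interior. For Atf3 it was 6.18 beyond the edge but 1.47, 1.56 and 1.14 in the other 3 regions, where spots without Sprr1a already held 56.9 to 88.9 CPM of Atf3. Adcyap1 had a ratio of 4.82 beyond the edge and of 1.41 (0.704 to 2.81) at the neural-side edge. At the tumor-side edge its ratio was 2.30 (1.26 to 4.39), and in the interior 1.27 (0.796 to 2.01). Ecel1 kept ratios of 3.89 to 10.7 in all 4 regions. Among granule-poor non-tumor spots alone, a set added after the values were seen, Npy had a ratio of 0.822 (0.673 to 1.002), Gal of 33.6 and Ecel1 of 2.92. The 91 non-tumor spots with Sprr1a in section 1 gave ratios of 1.47 for Gal (0.945 to 2.19), 1.46 for Ecel1 (0.949 to 2.17), 2.53 for Atf3 (1.95 to 3.25) and 0.814 for Adcyap1 (0.460 to 1.34). For Npy the ratio was 1.91 (1.502 to 2.39), and 4.20 (2.65 to 6.41) in granule-poor spots, so the sections lay on opposite sides of 1. For Atf3 the ratio in section 1 was 0.909 (0.361 to 1.90) in neural tissue beyond the edge. On the tumor side of section 1 some ratios were larger than in its non-tumor spots and others were smaller. At its tumor-side edge, with 28 spots with and 143 without Sprr1a, the ratio was 4.13 for Gal (2.95 to 5.76), 3.77 for Ecel1 (1.87 to 7.50) and 2.33 for Sox11 (1.22 to 4.28). In the interior Gal had a ratio of 3.30 (2.25 to 4.77) and Ecel1 of 1.69 (0.923 to 2.93). Atf3 had ratios of 1.19 (0.967 to 1.46) at that edge and 0.773 (0.594 to 0.992) in the interior. Npy had 0.862 (0.628 to 1.16) and 1.015 (0.728 to 1.39), and Gadd45a had 0.887 (0.710 to 1.10) and 1.002 (0.920 to 1.09).

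**Figure D4:**
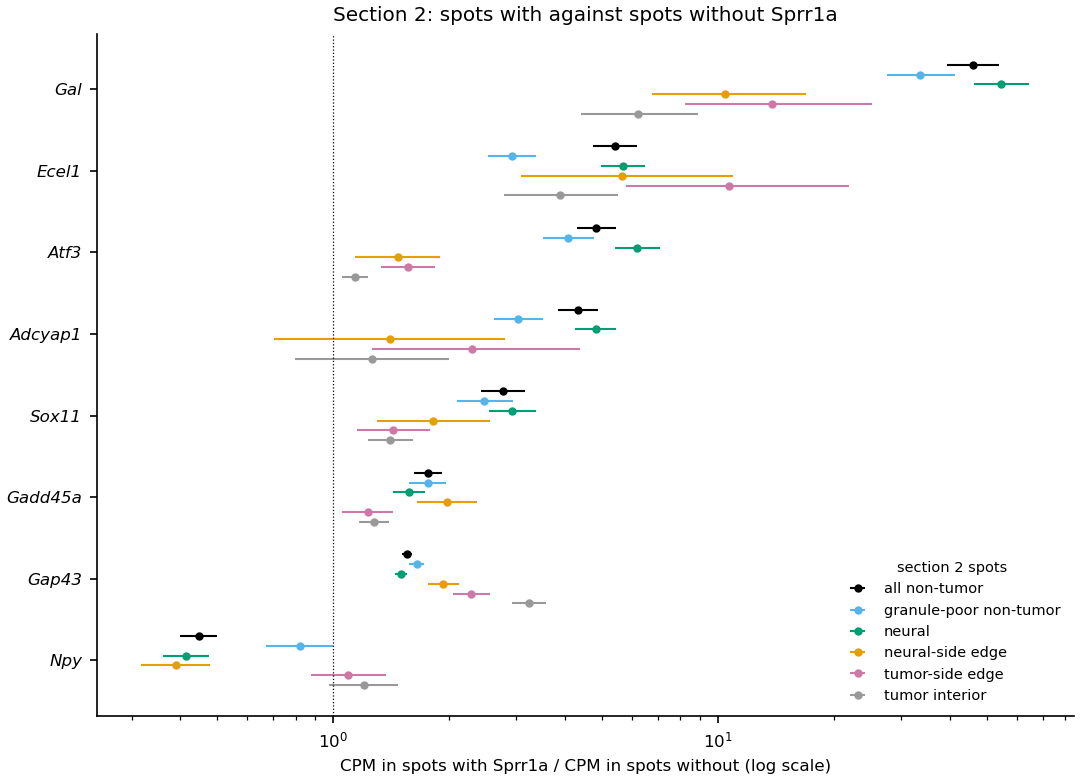
Ratio of CPM in section 2 spots with Sprr1a over spots without it (log axis) for the other 8 genes, in all non-tumor spots and in 5 subsets; bars are counting intervals at the 95% level. Gal lies far to the right in every subset, from 6.21 to 54.5, and Npy lies below 1 in the non-tumor subsets and above it, at 1.10 and 1.20, in the tumor-side edge and interior.

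Cell type markers moved with Sprr1a in section 2. Over non-tumor spots, the summed markers of large projection neurons (Nefh, Nefm, Nefl, Slc17a6, Slc6a5 and Spp1) were 1.78 times as high in spots with Sprr1a, with 6 of 6 genes above 1, and those of oligodendrocytes 1.30 times, also with 6 of 6. In the projection neuron sum, Spp1 gave 1986 CPM with and 1219 CPM without Sprr1a. That list summed to 11845 CPM in the tumor-side edge of section 2 against 3271 CPM in its neural tissue. Yet 5 of its 6 genes were called lower at that edge and 1 higher, so 1 gene can carry the sum. Summed markers of Purkinje cells, granule neurons and choroid plexus were at 0.264, 0.310 and 0.292 times, with 0 genes of these lists above 1. Epithelial markers were at 1.86 times (6 of 6 genes above 1) and microglia at 1.14 (4 of 5). The cornified list without Sprr1a was at 1.45, but with 3 of 9 genes above 1: the keratins Krt14 (1.92), Krt6a (1.86) and Krt16 (1.39), against Sprr3 at 0.460, Sprr2d at 0.282 and the envelope protein gene Ivl at 0.239. Lower sums were those of motor neurons (0.914, 1 of 6 genes above 1), monoamine neurons (0.882, 3 of 6), astrocytes (0.819, 2 of 5), macrophages (0.817, 1 of 6), Schwann cells (0.705, 1 of 6) and neutrophils (0.616, 2 of 5). Single genes of these lists went the other way, with Aqp4 of astrocytes at 1.41 (1.35 to 1.47) against Gfap at 0.743, Tph2 of serotonin neurons at 1.83 (1.31 to 2.55), Sox10, which oligodendrocytes also express, at 1.40 (1.24 to 1.58) and Camp of neutrophils at 2.09 (1.18 to 3.68). Fibroblast, T cell and vascular lists lay between 0.946 and 1.03. No gene of these lists was at 0 in the spots with Sprr1a, and the part of cell composition in the ratios of the 9 genes was not tested. In section 1, where 91 spots had Sprr1a, the macrophage list was at 2.56 times and the fibroblast list at 2.53 times. Of those 91 spots 28 lay in the neural-side edge, against 160 of the 2372 spots without Sprr1a. The macrophage list of section 1 stood at 3219 CPM at that edge and at 159 CPM in neural tissue. The part of location in these ratios was not tested. Several neural lists of section 1 went the other way from section 2. Granule neurons were at 1.68 (6 of 6 genes above 1), Purkinje cells at 1.25 (5 of 5) and motor neurons at 1.78 (6 of 6). Oligodendrocytes were at 0.626 (0 of 6), and large projection neurons at 1.07 with 1 of 6 genes above 1. Choroid plexus was low in section 1 as well, at 0.398, with 3 of 5 genes above 1.

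Touching spots with at least 2 UMIs of Sprr1a formed 6 patches of 20 or more spots in section 2, which held 545 spots and 83.4% of its Sprr1a UMIs. The largest run in section 1 had 3 spots. The values in patches follow from how they were drawn for Sprr1a and are described for the other 8 genes, beside the 989 granule-poor non-tumor spots without Sprr1a. Patch 1 had 242 spots at array rows 24 to 47 and columns 92 to 127, the last column of the array, all in neural tissue at a median of 21.7 pitches from the tumor. It held 53.4% of the UMIs of Sprr1a. Gal stood at 784 CPM there against 12.4 in the spots for comparison, Adcyap1 at 171 against 31.3, Ecel1 at 154 against 32.8, Atf3 at 135 against 25.9 and Sox11 at 91.2 against 25.4. Npy (29.0 against 29.1) and Gadd45a (69.3 against 63.8) were near the level of the other spots. Patch 1 was also rich in Slc17a7, a vesicular glutamate transporter, at 792 against 77.9 CPM, and in the neurofilament gene Nefh, at 875 against 559 CPM, whereas Chat had 4 UMIs and the choline transporter Slc5a7 had 0 UMIs, which allows up to 3.

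Patch 2, with 170 spots at rows 11 to 42 and columns 42 to 66, straddled the tumor border, with 68 spots in the interior, 54 in the tumor-side edge, 39 in the neural-side edge and 9 in neural tissue. Its profile was another. Atf3 (138 CPM) was as in patch 1, and Sox11 stood at 72.3 CPM (64.4 to 80.9) against 91.2 (80.6 to 103) there. In patch 2 Gal stood at 68.7 CPM, Adcyap1 at 9.78 and Gadd45a at 146. Beside these, Epcam was at 1110 CPM, the keratin Krt7 at 2314 and the macrophage gene Arg1 at 487. Patch 3, with 55 spots at rows 11 to 21 and columns 96 to 119 and a median of 9.17 pitches from the tumor, had the highest Gal, at 1048 CPM, with Adcyap1 at 101. Unlike in patch 1, Chat, Slc5a7 and Prph of the motor neuron list were not below the spots for comparison. Chat stood at 16.5 CPM (7.12 to 32.5) against 8.26, Slc5a7 at 26.8 (14.3 to 45.8) against 15.8 and Prph at 92.8 (67.7 to 124) against 58.3. The intervals of Chat and Slc5a7 held the level of those spots, and that of Prph alone lay above it. Other genes of that list were not looked up in patches. In every other patch Chat, Slc5a7 and Prph were lower than in those spots. The intervals of Prph in patch 4 (26.0 to 64.2 CPM) and of Chat in patch 5 (0 to 11.2) still held the level of those spots. Patch 4 had 34 spots, 11 in the tumor-side edge, 19 in the neural-side edge and 4 in neural tissue. It held Gal at 48.0 CPM and Gadd45a at 194. Patch 5, 23 neural spots at rows 49 to 55 and columns 57 to 64, held Atf3 at 204 CPM, Gadd45a at 250 and Gal at 122, but only 1 UMI each of Npy and Adcyap1. Patch 6, with 21 spots on the tumor side and edge, had Gap43 at 127 CPM, Ecel1 at 6.68 and Epcam at 1303 CPM. Gal and Atf3 were above the spots for comparison in all 6 patches, and their intervals did not reach the level of those spots. Those spots are non-tumor, however, and patches 2, 4 and 6 lay largely in tumor or edge. Section 2 spots without Sprr1a held 73.6 CPM of Atf3 in the interior, 88.9 in the tumor-side edge and 56.9 in the neural-side edge. For Atf3 of patch 6 (91.3 CPM, 72.6 to 113) the interval held the interior and tumor-side edge levels, where 12 and 7 of its spots lay. For patch 4 (100.0, 74.2 to 132) it held the tumor-side edge level, where 11 of its spots lay. It was above the neural-side edge level, where 19 lay. Adcyap1 was above the spots for comparison in patches 1 and 3 alone. In patch 2 it stood at 9.78 CPM (7.02 to 13.3). Section 2 spots without Sprr1a held 2.15 CPM of Adcyap1 in the interior, 5.90 in the tumor-side edge and 8.79 in the neural-side edge.

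**Figure D5:**
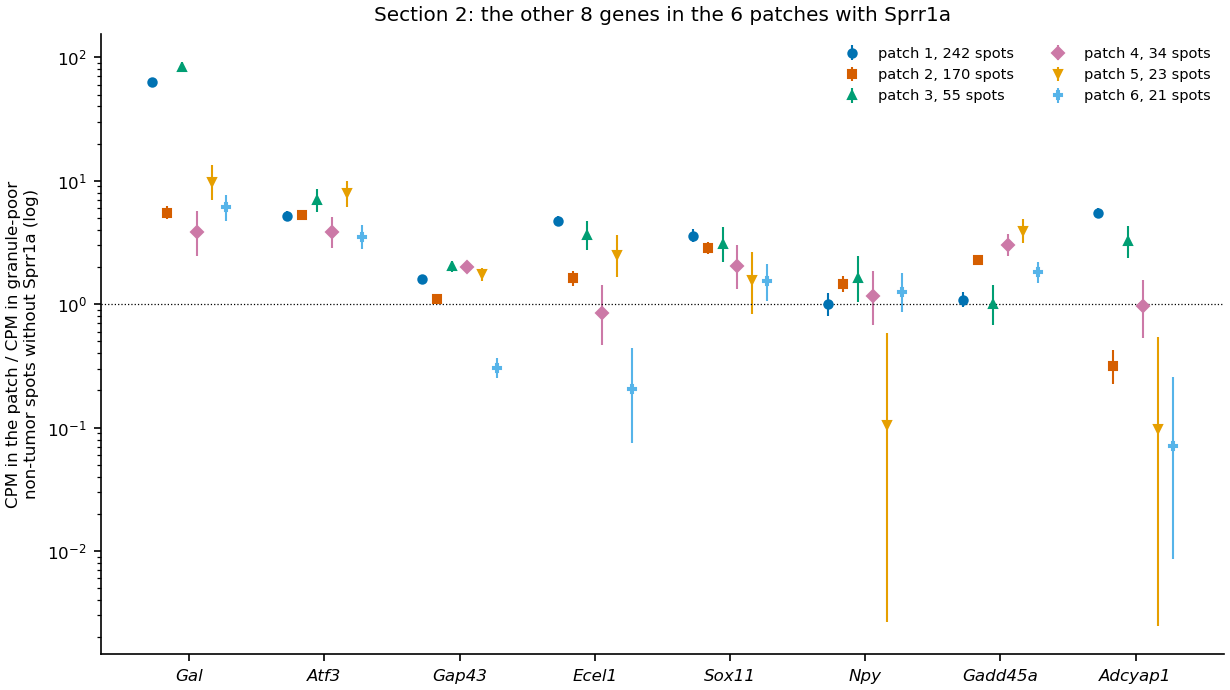
CPM of the other 8 genes in each of 6 section 2 patches with Sprr1a, over CPM in 989 granule-poor non-tumor spots without it (log axis, line at 1); bars are counting intervals at the 95% level. Gal and Atf3 lie above 1 in every patch, with Gal highest in patches 1 and 3, while Adcyap1 lies above 1 in patches 1 and 3 alone.

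Outside the patches the neural tissue of section 2 was closer to that of section 1 for Sprr1a and Gal, though Sprr1a stayed higher. Section 1 neural tissue had 3.503 CPM of Sprr1a and 12.003 CPM of Gal (TMM-scaled). Its TMM factor was 1.14, so both are higher by that factor under library size scaling. In the 2288 neural spots of section 2 outside patches, Sprr1a stood at 20.8 CPM and Gal at 12.3 CPM (library size scaling). At the neural-side edge of section 2 the 208 spots outside patches had 22.7 and 29.4 CPM. Since patches were drawn on Sprr1a, its fall outside them is by construction. Part of the difference between sections cannot be told apart from what tissue each section cut through. Granule-poor neural spots with over 300 CPM of Slc17a7, a limit set after the values were seen, formed an area of 253 touching spots in section 2, whereas section 1 had 48 such spots and no more than 4 in touch. In that area Sprr1a was present in 231 spots and absent from 22. The sets differed in depth, with a median of 11211 against 6717 UMIs. Gal was at 718 CPM against 45.2, a ratio of 15.9 (8.05 to 36.9). Slc17a7, by which the spots were chosen, had a ratio of 1.05 (0.893 to 1.24), Nefh of 1.53 (1.25 to 1.89), Jun of 2.07 (1.28 to 3.57) and Barhl1, a transcription factor gene, of 0.625 (0.403 to 1.02). Atf3 had a ratio of 3.37 (1.62 to 8.43) and Npy of 1.22 (0.459 to 4.59) there.

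Genes outside the 9 with the largest ratios between non-tumor spots with and without Sprr1a in section 2 were Hoxa4 (21.6 over 2.79 CPM, ratio 7.73), the heparan sulfate enzyme Ndst4 (5.48), the cadherin Cdh23 (5.28), Tafa1 (4.86), Pappa2 (4.83), the heparan sulfate sulfotransferase Hs3st4 (4.81), Hoxc4 (4.47), the G protein regulator Rgs4 (4.36), Ahnak2 (4.21), Apol9a (4.08), Hoxb5 (4.06), the opioid receptor Oprd1 (3.91), the orexin receptor Hcrtr2 (3.84), Spink10 (3.79) and the neurosecretory protein gene Vgf (3.78). Hoxa4, Hoxc4 and Hoxb5 are patterning genes of the hindbrain and spinal cord. These ratios differed by patch. Hoxa4 stood at 48.2 CPM in patch 1 against 4.19 in the spots for comparison, and at no more than 8.25 CPM in any other patch. Rgs4, Ahnak2 and Vgf were above those spots in patches 1 and 3, but not in patches 2 and 6. The rest of these genes were not looked up in patches. Over 129 blocks of the section 2 array, each 6 rows by 12 columns, the genes whose log2 CPM followed that of Sprr1a most closely were Gal (r = 0.77), Ahnak2 (0.64), Tsc22d1 (0.64), Ecel1 (0.62), Rgs4 (0.59), Tubb2a (0.58), Sox11 (0.57), Vgf (0.57), Ptp4a1 (0.55) and Dysf (0.55). Atf3 (0.55), Adcyap1 (0.41), Gadd45a (0.36) and Gap43 (0.27) came later in that order, and Npy (-0.05) ranked 11053 of 19054 genes. All blocks share 1 library and neighboring blocks share tissue, so these values describe the section and carry no test. Gal was also near Ecel1 (r = 0.62) and Adcyap1 (0.53), and Atf3 was not near Adcyap1 (-0.02).

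Other genes of the axon response and receptors of the 3 peptides, 58 genes on 59 rows, were tested in the same fit. At the neural-side edge 7 rows were called against neural tissue, 5 higher and 2 lower, with a median log2 difference of 0.10 against -0.03 over all genes. The higher ones were Ccl2, a monocyte chemokine (log2 fold change 2.95 ± 0.38 SE), the tubulin Tubb6 (2.84 ± 0.28), the urokinase receptor Plaur (2.50 ± 0.40), the hyaluronan receptor Cd44 (2.39 ± 0.41) and the transcription factor Cebpb (2.32 ± 0.29), with adjusted p values from 0.0358 to 0.0416 by edgeR's quasi-likelihood test. All 5 can be expressed by macrophages or tumor cells as well. The macrophage list stood at 3219 and 1705 CPM at this edge against 159 and 171 CPM in neural tissue, and its part in these calls was not tested. The lower ones were the PACAP receptor Adcyap1r1 (-1.71 ± 0.23, adjusted p = 0.0358) and the neuronal stress kinase Mapk10 (-1.38 ± 0.26, adjusted p = 0.0487). Cartpt, a further neuropeptide gene, had a log2 fold change of -1.66 and was not called (adjusted p = 0.0537). By group, 1 of 11 rows of transcription factors, 1 of 8 growth-cone genes, 2 of 11 adhesion genes and receptors and 1 of 12 peptide and cytokine genes rose, and 1 of 8 signaling genes and 1 of 9 peptide receptors fell, where 2.48% of all genes were called higher and 1.66% lower.

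At the tumor-side edge 14 of the 59 rows were called higher and 13 lower, where 10.3% and 11.5% of all genes were. In the interior 15 were higher and 22 lower, where 14.9% and 15.5% of all genes were. At the tumor-side edge the 3 highest were Tubb6 (3.82 ± 0.29 SE), Ccl2 (3.72 ± 0.38) and Plaur (3.51 ± 0.42), and the 3 lowest were Adcyap1r1 (-2.82 ± 0.24), Mapk10 (-2.80 ± 0.28) and the cholecystokinin gene Cck (-2.28 ± 0.41). In the interior the 3 lowest were Mapk10 (-4.47 ± 0.30), Adcyap1r1 (-4.30 ± 0.25) and Vgf (-4.16 ± 0.27). The largest positive value there was that of the cytokine gene Lif, 4.20 ± 1.57, which was not called (adjusted p = 0.0832 by edgeR), followed by Sox4 and Tubb6 (3.45 ± 0.29). The transcription factors Jun, Klf6, Stat3, Sox4, Nfil3, Cebpb and Myc were higher in both, for example Sox4 at 2.89 ± 0.46 and 3.55 ± 0.48. The neuronal growth-cone genes Stmn2, Stmn4 and Tubb3 were lower in both, with Stmn2 at -1.53 ± 0.20 and -3.73 ± 0.22. Of the 9 peptide receptors, 2 were called lower at the tumor-side edge, and 4 were called lower and 1 higher in the interior. Beside Adcyap1r1, the galanin receptor Galr1 (-1.27 and -1.26) and the neuropeptide Y receptors Npy1r (-0.76 and -1.30) and Npy2r (-1.09 and -1.58) were called lower in the interior alone. Within section 2 non-tumor spots, Vgf (157 over 41.5 CPM, ratio 3.78), Crh (2.86), Tubb3 (2.53), the habenular receptor Gpr151 (2.51), Tubb6 (2.33) and Gfra1 (2.14), a coreceptor for GDNF, were higher in spots with Sprr1a. All 8 growth-cone genes had ratios above 1 there, where the median ratio of the 13277 genes compared was 0.964. In section 1 non-tumor spots the summed growth-cone list was lower with Sprr1a, at 0.879 (0.845 to 0.915), with 4 of 8 genes above 1. The genes that follow are of section 2. Ngfr (0.421), Cck (0.449), Vipr2 (0.521) and Nos1 (0.532) were lower. Galr1 had 16 UMIs in spots with Sprr1a and 53 in the others, a ratio of 0.758 (0.404 to 1.35).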

How the data were processed

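Transcripts of 2 cerebellar sections of mouse brain were captured by Visium CytAssist for formalin-fixed sections, on an area 6.5 mm wide. Space Ranger 2.1.1 and build mm10 are named in the authors' processing notes. What was deposited is 1 matrix of counts a section, in unnormalized UMIs for each gene in each spot that lay under tissue. A probe panel reads short parts of each transcript, so levels of different genes were not compared. The authors' own clusters of spots were not used here. Barcodes are array positions, and 3096 were shared by the sections.

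Spots with under 500 UMIs or under 10 genes were left out, and 3315 and 3999 remained. A further 12 spots of section 2 in small tumor-like islands entered no region. The 4 regions of each section were pooled to give 8 libraries and fitted with edgeR 4.0.16 (R 4.3.3; filterByExpr, TMM, glmQLFit, glmQLFTest, Benjamini-Hochberg over 19064 genes) with the section as a block, since the regions of a section share an animal. Blocking by section lowered the common dispersion from 0.141 to 0.0806. With 2 sections, 3 residual degrees of freedom limit the precision. The fit was first run on simulated counts with less spread than these data and no difference between sections, so that run does not give its error rate here. Log2 differences of single genes used CPM plus 0.5. Exact Poisson and conditional binomial intervals, distances, patches and array blocks came from Python 3.11.15 (pandas 2.3.3, scipy 1.17.1, numpy 2.4.6), and plots from matplotlib 3.10.9.

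The genes and all lists were chosen with earlier results of these data known. Genes named beyond the 9 were taken by rule: called list genes and the 3 list genes with the largest change in each direction, all marker lists as sums, the 15 genes with the largest ratio between spots with and without Sprr1a (at least 30 UMIs in each), and the 10 genes nearest to Sprr1a over array blocks with at least 5 spots. Genes named in patches were chosen after their values were seen. Alternatives were DESeq2 1.42.0, RLE factors, library size scaling, no filter, no block, edges of 2 and 5 pitches, the index threshold moved by 1 in either direction, a higher minimum of UMIs per spot, and no granule-rich spots.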

Additional observations from a re-analysis of the deposited data

How the results depend on the processing

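Counts of calls at the neural-side edge depended on the settings. Against 788 genes and 7 axon response rows, DESeq2 called 1969 and 16, and the fit without granule-rich spots called 1738 and 12. With the index threshold raised by 1, 1465 genes were called. No gene and no axon row was called (0 and 0) without the replicate block by section, with the edge extended to 5 pitches, or with the threshold lowered by 1, where 3331, 4037 and 3826 genes had an unadjusted p under 0.05 in edgeR, and the cause was not tested. RLE factors, library size scaling, no filter on low counts, an edge of 2 pitches and a higher minimum of UMIs per spot left the 788 genes within 1.5 times, as all settings did at the tumor-side edge and in the interior.

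For the 9 genes, 77 of 90 alternative values of the mean difference between neural-side edge and neural tissue kept their direction. The other 13 were of Gap43 (5), Sprr1a (3), Sox11 (3) and Gal (2). Leaving out either section gave 1.19 and -0.94 for Sprr1a and 1.02 and -1.18 for Gal on the log2 scale. In all 48 alternatives of the ratio between section 2 spots with and without Sprr1a the direction was kept, but these share spots. Among them, the intervals of Npy in granule-poor spots (0.673 to 1.002) and of Adcyap1 at the neural-side edge (0.704 to 2.81) held 1. The tumor-side edge and interior were not among them, and Npy had ratios of 1.10 (0.878 to 1.37) and 1.20 (0.980 to 1.48) there. Of the 48, 30 lay outside the counting interval, with Gal at 10.5 in neural-side edge spots and 54.5 beyond the edge. The set of granule-poor non-tumor spots was added after the data were seen. With 2 sections, no difference between them can be tested, and a gene with few UMIs in a region is limited by depth.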
